A study of Mus musculus with 4 samples.

Results

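The H/ACA gene group described here was defined by symbol. It took in every probe set annotated to Dkc1, Nhp2, Nop10, Gar1, Naf1, Shq1 or Nolc1 on 4 Affymetrix arrays of mouse embryonic fibroblasts, which are matrix-producing cells cultured out of the embryo. Of the 7 genes, 5 had a probe set in the annotation used here, with 9 probe sets in all, out of 12394 named genes and 22690 probe sets. Nolc1 had 3 probe sets, Nhp2 and Nop10 had 2 each, and Gar1 and Naf1 had 1 each. Dkc1 and Shq1 had none annotated to them and were not analysed here.

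There were 4 groups of 1 array each, all from strain C57/BJ6 as the labels spell it. They were ribosome-bound RNA (called polysome RNA) labelled Npm1+/- (heterozygote), polysome RNA labelled Npm1+/+ (wild type), total RNA labelled Npm1+/- and total RNA labelled Npm1+/+. Npm1 encodes nucleophosmin, a nucleolar protein of ribosome assembly, and the series title links its mutation to dyskeratosis congenita and to the methylation of ribosomal RNA. The labels give neither the inactivating allele nor the embryos or cultures behind each library, so a difference between arrays may be a difference between cultures.

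H/ACA particles are small RNAs bound by dyskerin (Dkc1), Nhp2, Nop10 and Gar1. The RNA pairs with a target, mostly ribosomal or spliceosomal RNA, and dyskerin turns the selected uridine into pseudouridine. The same proteins bind the RNA of telomerase, and human DKC1, NHP2 and NOP10 are genes of dyskeratosis congenita, an inherited telomere disorder. Shq1 and Naf1 act during assembly: Shq1 holds dyskerin before it meets RNA, and Naf1 occupies the place that Gar1 takes in the mature particle. Nolc1, also called Nopp140, is a phosphoprotein of the nucleolus and Cajal body that binds finished H/ACA and box C/D particles.

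The upstream sequences of 3 measured members, Gar1 and Nhp2 of the core and Nolc1 of transport, are shown because they hold the same short motif. The window of Nop10, also measured, lacks that motif and is not shown. Each is the 250 bases before a start position given with the RefSeq sequences (GRCm38.p6), written 5′ to 3′ on the gene's strand. Capitals mark CCGGAAG or its reverse complement, a core recognised by ETS-family transcription factors. The window of Gar1 lies at chr3:129831397-129831646 (minus strand), that of Nhp2 at chr11:51619523-51619772 (plus strand) and that of Nolc1 at chr19:46075597-46075846 (plus strand). As annotated, the Gar1 gene extends to 129831407, so its window overlaps the 5′ end of the gene.
Gar1: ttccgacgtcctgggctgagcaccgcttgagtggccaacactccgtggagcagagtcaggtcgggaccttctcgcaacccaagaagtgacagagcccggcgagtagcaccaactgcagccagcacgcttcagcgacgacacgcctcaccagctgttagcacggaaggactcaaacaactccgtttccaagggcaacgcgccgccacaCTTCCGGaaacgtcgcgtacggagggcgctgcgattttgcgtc
Nhp2: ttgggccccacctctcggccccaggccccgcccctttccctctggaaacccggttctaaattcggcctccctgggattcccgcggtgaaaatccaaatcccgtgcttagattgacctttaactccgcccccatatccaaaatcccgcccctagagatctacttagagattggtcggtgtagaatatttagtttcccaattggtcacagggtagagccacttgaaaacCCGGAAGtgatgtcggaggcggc
Nolc1: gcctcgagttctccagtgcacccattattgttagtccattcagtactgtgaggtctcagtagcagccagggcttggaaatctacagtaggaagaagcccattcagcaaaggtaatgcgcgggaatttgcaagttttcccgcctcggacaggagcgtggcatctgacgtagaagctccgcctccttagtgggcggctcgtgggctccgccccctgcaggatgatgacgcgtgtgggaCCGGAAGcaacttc

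The CCGGAAG match began 43 bases before that start position in Gar1, 23 in Nhp2 and 14 in Nolc1. Shq1, which had no probe set, also held a match, 31 bases before its start position, in a window that likewise overlaps its annotated gene. Nop10 and Dkc1 held none and Naf1 was not in the sequence table. A match was therefore present in 4 of 6 windows of the group, against 6.91% of 32851 windows in the table and 14.3% of the 7598 windows of genes measured here. It was chosen out of 10 motifs searched on both strands, and the other 9 were in 0 to 3 of the 6 windows. Of those, with the share of the windows of measured genes in brackets, GGGCGG was in 3 (60.6%). CCAAT (34.9%), TATAAA (6.08%) and CATGCG (8.83%) were in 1 each. CACGTG (8.63%), CTTTCCG (4.15%), GCCATNTTG (1.91%) and the NRF1 (1.66%) and ZBTB33 (0.934%) palindromes were in 0. The match occurred in genes whose differences between the genotype labels had opposite signs, as the values below show. A match is a description of the letters and no evidence of binding.

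Levels below are deposited log2 values, so a difference of 1 is 2-fold. Levels of different probe sets are not comparable, because each has its own affinity. A gene was read at its probe set with the highest mean, and kept where at least 1 array reached a floor of 7.53, the median over all probe sets and arrays. All 5 genes passed this floor, among 7180 in total. With 1 array per group no test was possible and no value has a replicate error. The guide to technical spread was how far the differences of a gene's probe sets lay apart, as the SD over 2702 genes with at least 2 probe sets above the floor. This SD was 0.32 for the genotype difference in total RNA, 0.28 for that in polysome RNA, 0.24 and 0.28 for polysome minus total RNA under the heterozygote and the wild-type label, and 0.22 for the difference between those last differences, called the association difference. The comparisons share arrays, so a reading that is high or low on 1 array enters several of them.

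The cells carried the markers of their label. All 11 fibroblast markers were at or above the floor on every array, against 0 or 1 of 5 endothelial and 0 or 1 of 5 epithelial markers. Of 14 macrophage markers, 9 and 7 were at or above the floor in the polysome libraries labelled heterozygote and wild type, against 3 in each total library. The remaining 5, Tyrobp, Adgre1, Cd68, Cd14 and Ptprc, were below it on all 4 arrays. Npm1, the targeted gene, did not differ as the genotype labels would have it. Total RNA gave 11.96 (heterozygote) against 11.91 (wild type) at the brighter probe set and 12.03 (heterozygote) against 11.96 (wild type) at the other. Polysome RNA gave 12.84 (heterozygote) against 12.93 (wild type) and 12.79 (heterozygote) against 12.73 (wild type). Probe sets outside the disrupted part of Npm1 would check nothing, and their position is unknown here. Directions below are therefore those of libraries by their label. The readings of the 3′ and 5′ control probe sets differed by -0.09 to 0.12 for Gapdh and 0.01 to 0.06 for beta-actin over the 4 arrays.

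No H/ACA gene differed by 2-fold or by 1.5-fold in any comparison at its brightest probe set. Between the genotype labels, Gar1 and Naf1 read higher and Nolc1 lower in the library labelled heterozygote in both RNAs, and Nop10 differed by 0.17 or less. Nhp2 read 0.48 higher in total RNA and differed by -0.03 in polysome RNA, with 0.07 and -0.26 at its dimmer probe set. The largest departure from other genes was in the association difference, where Nhp2 was lower than all but 29 of 7180 genes.

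**Figure D1:**
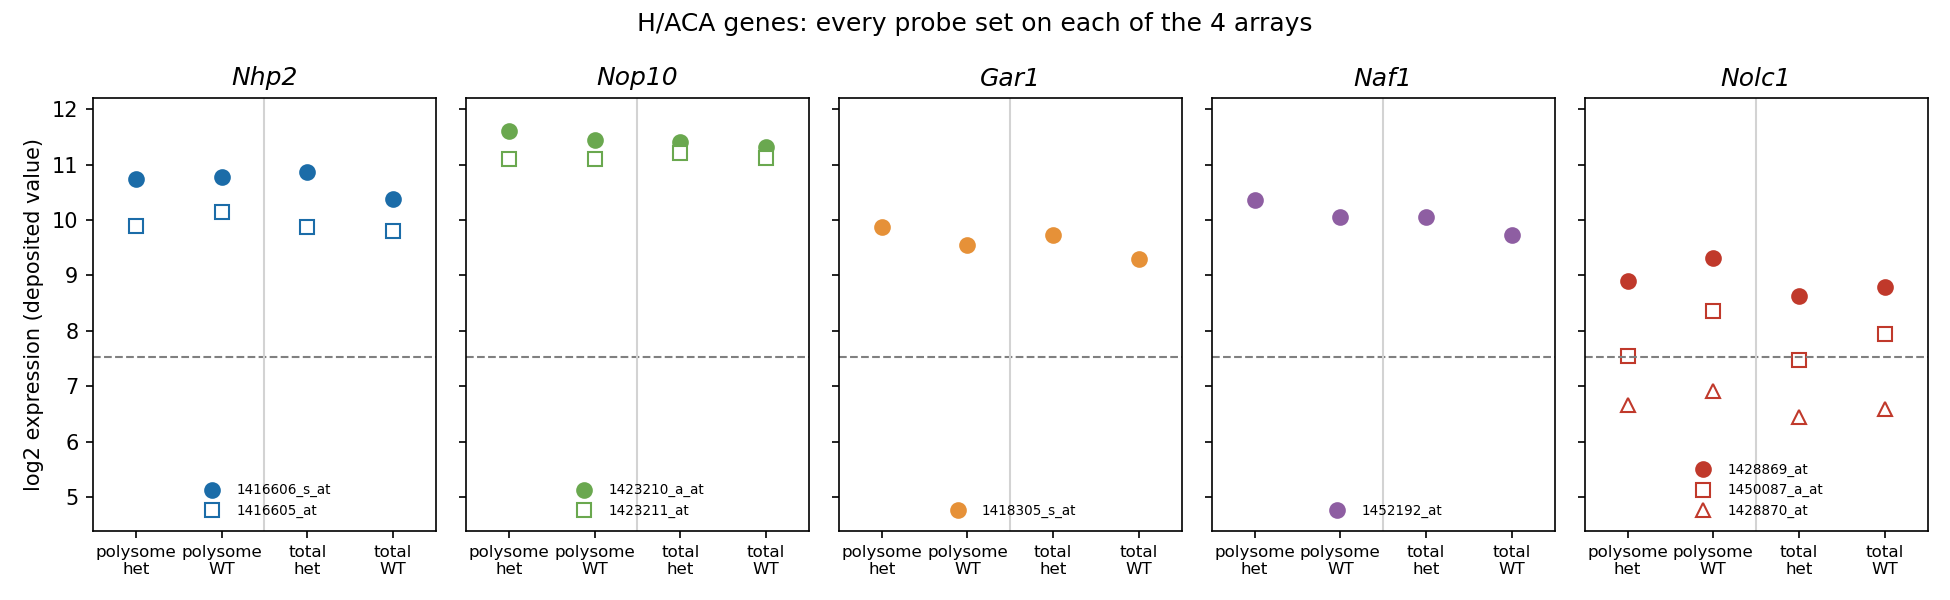
Deposited log2 value of each of the 9 H/ACA probe sets (vertical axis) on each of the 4 arrays (horizontal axis, 1 array per group); filled points are the brightest probe set of a gene, open points the others, and the dashed line is the floor at 7.53. Nolc1 is highest on the wild-type polysome array at all 3 probe sets, and Gar1 and Naf1 are higher on the heterozygote array of each pair.

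In total RNA, the count past 2-fold was 0 of 5, where 1.73% of all genes passed, and the count past 1.5-fold was also 0, where 13.6% did. The median difference of the 5 genes, heterozygote minus wild-type label, was 0.31, against 0.19 for the median gene. In all 4 of 5 lay above 0, as did 66.1% of all genes, and 3 of 5 lay above the median gene. In polysome RNA the count was again 0 at 2-fold, with 1.25% of all genes past it, and 0 at 1.5-fold, with 7.94%. The median there was 0.17, against 0.11 for the median gene, with 3 of 5 above 0, as were 62.9% of all genes, and 3 of 5 above the median gene. The medians depend on the setting: without _x_at and _s_at probe sets, which leaves 4 genes, they were 0.09 in total RNA, with 1 of 4 above the median gene, and -0.04 in polysome RNA, with 2 of 4 above it. After subtraction of a loess trend they were 0.10 and 0.03, with 3 of 5 above the median gene in each.

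Gar1, the glycine- and arginine-rich subunit that helps release the modified RNA, had a value of 9.74 in total RNA labelled heterozygote, against 9.29 in that labelled wild type. Its polysome values were 9.87 (heterozygote) and 9.54 (wild type). Both heterozygote arrays were thus above both wild-type arrays. The differences were 0.44 (1.36-fold) and 0.33 (1.26-fold), each larger than the SD between probe sets, but 0.26 and 0.22 once the median gene was subtracted, which is within it in both RNAs. Higher differences were found for 19.9% of genes in total RNA and 18.5% in polysome RNA. The only probe set of Gar1 is of the _s_at kind, which can match more than 1 transcript.

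Nhp2, the subunit that binds the RNA's upper stem, gave different pictures at its probe sets. The brighter probe set (of the _s_at kind) read 10.87 (heterozygote) against 10.39 (wild type) in total RNA, and 10.75 (heterozygote) against 10.77 (wild type) in polysome RNA. The wild-type total array stood 0.36 below the next, while the other 3 lay within 0.12 of each other. The dimmer probe set read 9.88 (heterozygote) against 9.80 (wild type) in total RNA and 9.89 (heterozygote) against 10.15 (wild type) in polysome RNA. There the wild-type polysome array stood 0.26 above the next and the other 3 lay within 0.09. The genotype difference in total RNA was accordingly 0.48 (1.39-fold) at the brighter and 0.07 at the dimmer probe set, 0.41 apart, which is more than the SD of 0.32. In polysome RNA it was -0.03 and -0.26.

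Nop10, the smallest subunit, which lines up dyskerin and the RNA, varied least. Its brighter probe set read 11.41 (heterozygote) against 11.31 (wild type) in total RNA and 11.61 (heterozygote) against 11.44 (wild type) in polysome RNA. The other read 11.21 (heterozygote) against 11.11 (wild type) in total RNA and 11.10 (heterozygote) against 11.11 (wild type) in polysome RNA. The differences of 0.10 in total RNA at both probe sets, and of 0.17 and -0.01 in polysome RNA, lay within the spread between probe sets. The sign in total RNA at the brighter probe set turned under 3 of 4 other scalings (-0.12 to -0.00), so no direction is given for Nop10.

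Naf1, the assembly factor that precedes Gar1, read 10.05 in total RNA labelled heterozygote and 9.73 in that labelled wild type. In polysome RNA it read 10.35 (heterozygote) and 10.05 (wild type). The arrays of the labels therefore overlapped across RNAs, the heterozygote total and the wild-type polysome reading being equal to 2 decimals. Its differences, 0.31 (1.24-fold) and 0.30 (1.23-fold), were alike in both RNAs. They were 0.13 and 0.19 after subtraction of the median gene, within the spread between probe sets, and Naf1 has only 1 probe set to judge by.

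Nolc1 was the only measured member with a lower value under the heterozygote label at every probe set and in both RNAs. The brightest probe set read 8.63 (heterozygote) against 8.80 (wild type) in total RNA, and 8.89 (heterozygote) against 9.31 (wild type) in polysome RNA. The middle one read 7.47 (heterozygote) against 7.94 (wild type) in total RNA and 7.55 (heterozygote) against 8.35 (wild type) in polysome RNA. The dimmest, below the floor on all 4 arrays, read 6.44 (heterozygote) against 6.59 (wild type) and 6.66 (heterozygote) against 6.91 (wild type) in the same RNAs. At all 3 the wild-type polysome array was the highest and the heterozygote total array the lowest.

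The Nolc1 differences were -0.16, -0.47 and -0.15 in total RNA and -0.42 (1.34-fold lower), -0.81 (1.75-fold lower) and -0.25 in polysome RNA. The value of -0.81, from a probe set near the floor, was the only one among the 9 probe sets past 1.5-fold in any comparison. At the brightest probe set the polysome difference was -0.53 after subtraction of the median gene, larger than the SD of 0.28, and 9.79% of genes had a lower difference. In total RNA it was -0.35 after that subtraction, slightly above the SD of 0.32, and 23.0% of genes were lower. The probe sets of Nolc1 were 0.55 apart in polysome RNA, so the direction is shared by them but the size is not settled.

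**Figure D2:**
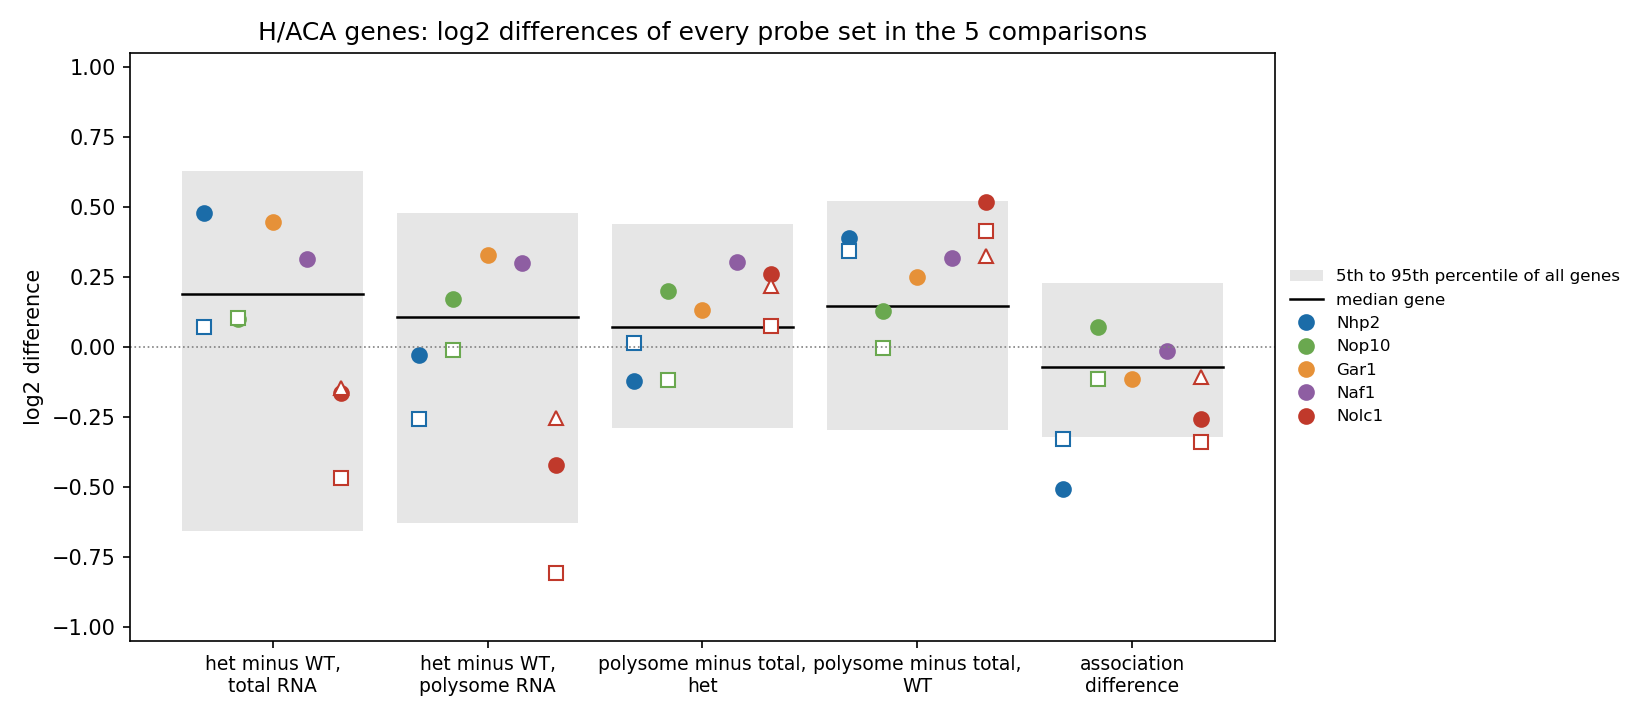
Log2 difference of each of the 9 H/ACA probe sets (vertical axis) in the 5 comparisons (horizontal axis); grey bars span the 5th to 95th percentile of 7180 genes, black lines mark the median gene, filled points are the brightest probe set of a gene and open squares and triangles its others. Nolc1 is below 0 at all 3 probe sets in both genotype comparisons. Both Nhp2 probe sets (-0.51 and -0.33) and the middle Nolc1 probe set (-0.34) lie below the grey bar for the association difference. That Nolc1 probe set is also below the bar for the genotype difference in polysome RNA (-0.81).

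Between the fraction labels each mRNA's polysome reading was set against its total reading, as far as the fractions contain what their labels say. Levels are relative, so a difference does not give the share of an mRNA held on ribosomes. In these bulk libraries a change in the number of cells of a type and a change in RNA per cell cannot be told apart. Under the heterozygote label 0 of 5 genes passed 2-fold, against 0.766% of all genes, and 0 passed 1.5-fold, against 3.59%. Under the wild-type label the counts were also 0 of 5, with 0.919% of all genes past 2-fold and 5.21% past 1.5-fold. The median of polysome minus total was 0.20 for the 5 genes and 0.07 for the median gene under the heterozygote label, and 0.32 and 0.14 under the wild-type label. The summed linear signal of the 14 macrophage markers was 4178 and 3196 in the polysome libraries labelled heterozygote and wild type, against 1663 and 1373 in the total libraries. These sums mix probe sets of unlike affinity, and only 3 of the 14 markers reached the floor in each total library, so they do not measure macrophage content. Under each label 6 of the 14 were more than 2-fold higher in polysome RNA: C1qa, C1qb, C1qc, Ctss, Lyz2 and Fcer1g. Of these only Lyz2 reached the floor in total RNA, so the others passed it only through polysome readings. Their differences rest on total readings below the floor. The 5 markers below the floor on all arrays ranged from -0.32 (Ptprc) to 0.61 (Tyrobp) under the heterozygote label. Under the wild-type label they ranged from -0.21 (Ptprc) to 0.61 (Tyrobp). C1qb, a complement subunit, had the largest difference, 2.97 under the heterozygote and 2.44 under the wild-type label. Of the fibroblast markers Dcn, a matrix proteoglycan, was the only one past 2-fold, at 1.16 and 1.37 under the same labels. The part of these signals in the H/ACA differences was not tested.

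Nolc1 had the largest difference between fractions under the wild-type label, 0.52 (1.43-fold higher in polysome RNA) at the brightest probe set, 0.41 and 0.32 at the others, and 5.17% of genes had a higher one. Under the heterozygote label it was 0.26, 0.07 and 0.22 at the same probe sets. Naf1 was at 0.30 under the heterozygote and 0.32 under the wild-type label, nearly the same, and Gar1 at 0.13 and 0.25. Nop10 was at 0.20 and 0.13 at its brighter probe set but -0.12 and -0.00 at the other. At the brightest probe sets, Naf1 under both labels, and Nolc1 under both, exceeded the SD between probe sets, as did Nhp2 (below) under the wild-type label. Once the median gene was subtracted, Nolc1 at 0.37 under the wild-type label was the only one of these above it.

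Nhp2 differed between the genotype labels in this respect. Polysome minus total was -0.12 at the brighter and 0.01 at the dimmer probe set under the heterozygote label, against 0.39 and 0.34 under the wild-type label. The association difference was therefore -0.51 (1.42-fold lower) and -0.33 (1.26-fold lower). Of 7180 genes 29, or 0.404%, had a lower association difference than the brighter probe set, and 4.57% a lower one than the dimmer. The probe sets were 0.18 apart, within the SD of 0.22, although different arrays stood apart at each of them, as described above. The median gene was at -0.07, and relative to it the brighter probe set was at -0.44.

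The other members had association differences of 0.07 (Nop10, with -0.11 at its other probe set), -0.01 (Naf1), -0.12 (Gar1) and -0.26 (Nolc1, with -0.34 and -0.11 at the others). Nolc1 was below 0 at all 3 probe sets. Of all genes, 10.9% were lower than its brightest and 4.01% lower than its middle probe set. The count past 2-fold was 0 of 5 and past 1.5-fold 0 of 5, where 0% and 0.306% of all genes passed. The median of the 5 was -0.12, against -0.07 for the median gene.

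Among genes that modify uridine without a guide RNA, 7 of 12 listed were on the array and 6 passed the floor, with none past 2-fold in any comparison. In total RNA 3 of the 6 lay above the median gene, the list median being 0.21. Pus1, a synthase of transfer RNA, had the largest difference at the brightest probe sets. It read 9.59 (heterozygote) against 9.15 (wild type) in total RNA (0.44), and 9.60 (heterozygote) against 9.21 (wild type) in polysome RNA (0.39). Rpusd4, a mitochondrial synthase, followed in total RNA at 7.76 (heterozygote) against 7.33 (wild type), with the wild-type reading below the floor. In polysome RNA Trub2, also a mitochondrial enzyme, followed Pus1 at 0.13, with 0.25 and 0.20 at its dimmer probe sets. In total RNA the brightest Trub2 probe set was at 0.24 and the dimmer ones at 0.41 and 0.63, the last above Pus1.

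Of 11 listed partners in assembly and RNA maturation all were on the array and 9 passed the floor; none was past 2-fold in any comparison. Their median genotype difference was 0.01 in total and -0.01 in polysome RNA. Phax, which exports small nuclear RNA, had the largest, 9.83 (heterozygote) against 9.29 (wild type) in total RNA (0.54) and 9.80 (heterozygote) against 9.47 (wild type) in polysome RNA (0.33). Pih1d1 and Rpap3 belong to the chaperone complex that assembles these particles. Pih1d1 was at 0.33 in total and 0.14 in polysome RNA, whereas Rpap3 was at -0.32 and -0.26. Rpap3 read near the floor, with its heterozygote total reading (7.22) below it. Of the telomerase proteins, chosen for mention after their values were seen, Tert, the catalytic subunit, was below the floor at 6.05 to 6.19 on all 4 arrays, and Wrap53, which brings telomerase to Cajal bodies, below it at 7.23 to 7.45.

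Box C/D particles, which guide ribose methylation and are also bound by Nolc1, had 6 of 8 listed genes on the array, all passing the floor and none past 2-fold in any comparison. Their median genotype difference was 0.36 in total RNA, with 5 of 6 above the median gene, and 0.14 in polysome RNA, with 3 of 6. Fbl, the methyltransferase, read 11.49 (heterozygote) against 10.90 (wild type) in total RNA (0.59) and 11.47 (heterozygote) against 11.27 (wild type) in polysome RNA (0.20). That probe set is of the _s_at kind, and the other Fbl probe set was at 0.40 in total and 0.22 in polysome RNA. The assembly factor Znhit3 was at 0.48 in total and 0.35 in polysome RNA, with its wild-type total reading (7.47) below the floor. Nop56, a core protein, had the opposite sign, at 9.53 (heterozygote) against 9.87 (wild type) in total RNA (-0.34) and 9.89 (heterozygote) against 10.22 (wild type) in polysome RNA (-0.33). The association differences largest in size at the brightest probe sets were those of Fbl (-0.39) and Nop58 (-0.31), a core protein, with the list median at -0.21. The other Fbl probe set was at -0.18. No test of a difference between the particle types was possible.

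**Figure D3:**
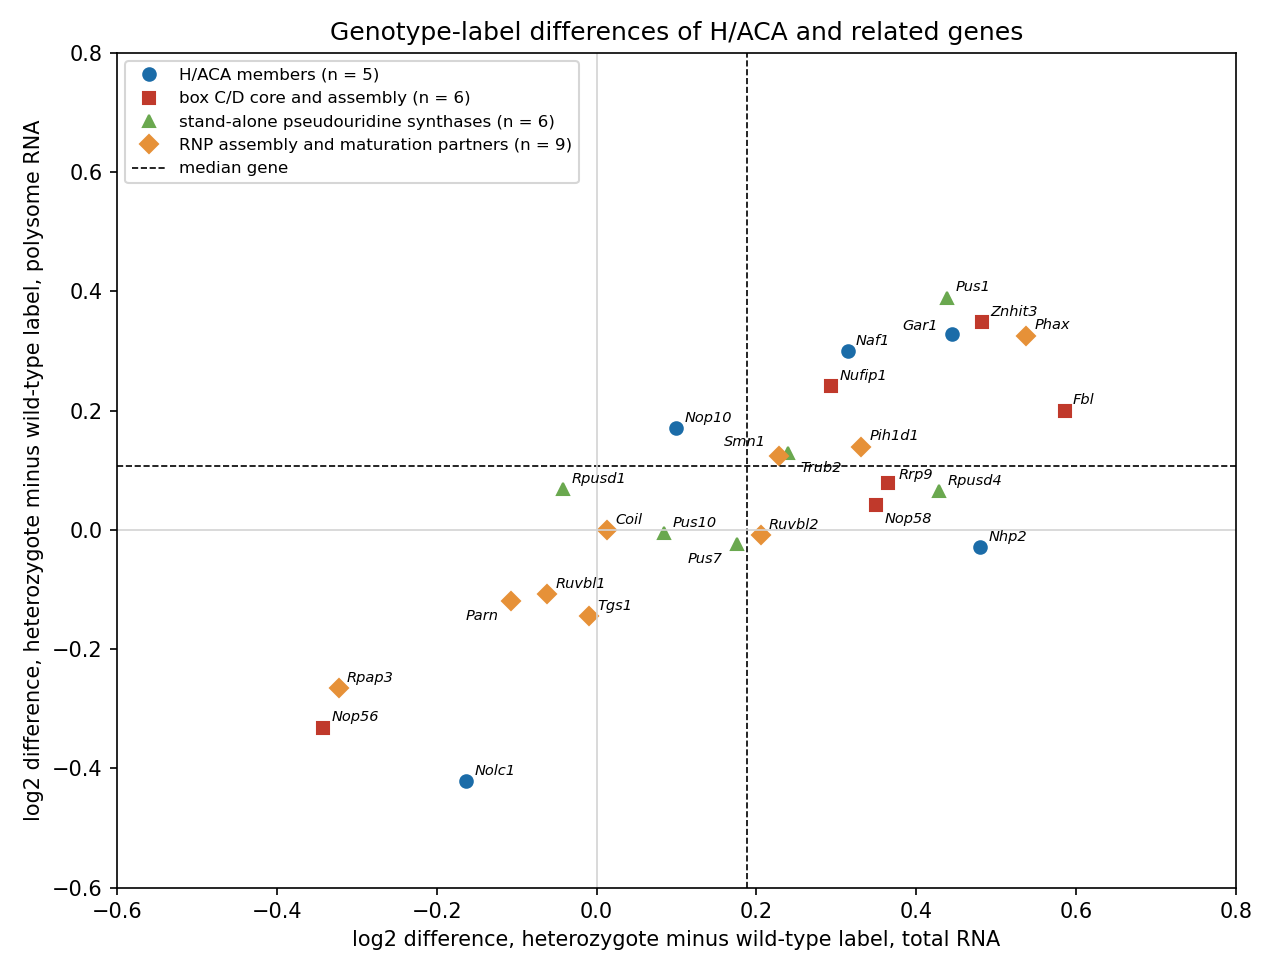
Log2 difference between the heterozygote and the wild-type label in total RNA (horizontal axis) and polysome RNA (vertical axis) for the measured genes of 4 lists, 1 point per gene at its brightest probe set; dashed lines mark the median gene at 0.19 and 0.11. Nolc1, Nop56 and Rpap3 lie at the lower left, Gar1 and Naf1 at the upper right among box C/D genes and Pus1, and Nhp2 right of centre below 0.

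Of the other genes of dyskeratosis congenita and related telomere disorders, 7 of 10 were on the array and 5 passed the floor. Apart from Npm1 between the fraction labels under the wild-type label (1.02 at the brighter probe set, 0.77 at the other), none was past 2-fold. Under the heterozygote label these Npm1 probe sets were at 0.88 and 0.76. Ctc1, of the complex that aids replication of telomere ends, was lowest between the genotype labels, at 7.75 (heterozygote) against 8.29 (wild type) in total RNA (-0.54) and 8.05 (heterozygote) against 8.42 (wild type) in polysome RNA (-0.37). Its dimmer probe sets were at -0.57 and -0.06 in total RNA and at -0.21 and 0 in polysome RNA, the second of them below the floor on every array. Next in size were Acd, of the telomere-binding shelterin complex, at 0.19 in total RNA, and Parn, a nuclease that trims the telomerase RNA, at -0.12 in polysome RNA.

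The genes whose 4-array profiles were most like that of Nolc1, by Euclidean distance between profiles centred on their own means, were Pes1 (distance 0.016), Copg2 (0.051), Mettl9 (0.064), Scaf4 (0.068) and Tipin (0.072). Genes with a probe set above the floor that moved opposite to Nolc1 were left out of this naming. Pes1, a ribosome assembly factor, was the nearest of the genes kept. It read 8.44 (heterozygote) against 8.62 (wild type) in total RNA and 8.72 (heterozygote) against 9.12 (wild type) in polysome RNA. The H/ACA genes themselves were at 0.51 (Nop10) to 0.71 (Gar1), in places 2436 to 4856 of the order of all 7179 other genes, with none left out. With 4 arrays such nearness is a description only.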

How the data were processed

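Expression was measured on 4 arrays, 1 per group, and groups were taken from the titles in the labels. The deposited values are log2 expression per probe set; RMA, affy 1.56.0 and R 3.4.3 are listed in the submitters' processing notes, and RMA models background, aligns arrays and merges probes, so levels are relative and small differences depend on the scaling. Settings are not given in the sources used here, and depth has no counterpart beyond the number of arrays. Of the listed probe sets 20393 had 1 gene symbol and 691 several (not used). For 20364 probe sets with 1 symbol, the Entrez number was found in RefSeq (GRCm38.p6).

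Differences of log2 values were computed with Python 3.11.15, pandas 2.3.3 and statsmodels 0.14.6. The difference and counting steps were tested on simulated data for the genotype difference in total RNA only. The choice of probe sets and the floor were not tested in that way. Named genes were all members, Npm1, from each list of related genes those past 2-fold or else the 2 largest differences, and the 5 profiles nearest to Nolc1. For these 5, no probe set above the floor moved opposite to Nolc1. The same rule for Dkc1 could not be applied. Members and lists were chosen with earlier results of these data known. Alternatives were another choice of probe sets, floor, scaling and size threshold.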

Additional observations from a re-analysis of the deposited data

Results flagged for a closer look

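Nhp2 was singled out because its differences had opposite signs in the paired contrasts. Heterozygote minus wild-type label was 0.48 for total and -0.028 for polysome RNA, and polysome minus total was -0.12 under the heterozygote label and 0.39 under the wild-type label. Both are the same disagreement seen from either side, each side rests on single arrays, and the difference was not tested. At the dimmer probe set the values were 0.07 and -0.26, and 0.01 and 0.34. The values of -0.028 and -0.12 at the brighter probe set lay within the SD between probe sets (0.28 and 0.24), so their signs are not settled.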

How the results depend on the processing

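No paired analysis was possible because each group has 1 array and the labels give no replicate numbers. The count of H/ACA genes past the size threshold was 0 in all 5 comparisons and under all 10 alternatives, thresholds of 1.5-fold and 3-fold included. The 3-fold threshold could give no other count. The medians over the H/ACA genes moved by less than the SD between probe sets in 40 of 40 recomputed values, but several changed by more than 1.5 times. Removing the floor could not move them, since all 5 genes passed it. Their ranges were 0.09 to 0.38 (against 0.31) for the genotype difference in total RNA, -0.04 to 0.24 (against 0.17) for that in polysome RNA, 0.10 to 0.23 (against 0.20) and 0.17 to 0.33 (against 0.32) for polysome minus total under the heterozygote and the wild-type label, and -0.14 to -0.03 (against -0.12) for the association difference. The lowest value of each genotype difference came without _x_at and _s_at probe sets, a setting that removes Gar1, and in polysome RNA the sign turned there. Of 190 values of single genes 189 moved by less than that SD. The exception was Nhp2 in total RNA, at 0.07 without those probe sets, where its other probe set takes over. Many of the 190 could not move. A changed floor left each kept gene's value as it was, and Gar1 and Naf1 have 1 probe set to average. The SD, 0.22 to 0.32, was also larger than many of the differences, so a value could turn sign and still count as within it. Signs turned in 11 of the 190, for Nop10, Naf1 and Nhp2, from values of 0.13 or less in size. The genotype differences of Gar1, Naf1 and Nolc1 kept their signs under every alternative that could be run for them, at 0.25 to 0.44, 0.10 to 0.31 and -0.33 to -0.16 in total RNA, and at 0.21 to 0.34, 0.17 to 0.32 and -0.51 to -0.41 in polysome RNA. The association difference of Nhp2 was between -0.51 and -0.33. The stricter floor of 9.33 removes Nolc1. Centring arrays on the median gene above the floor, chosen after seeing the data, moved that gene's genotype difference in total RNA to 0.06, against 0.19. Centring on array medians moved its polysome minus total difference to -0.03, against 0.07, under the heterozygote label and to 0.02, against 0.14, under the wild-type label, with 4 of 5 H/ACA genes above it in each case. The dimmest Nolc1 probe set was below the floor on all 4 arrays and the middle one on 1 of 4; their signal over background was not measured here.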
